A study of Mus musculus with 20 samples.

Results

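Wild-type C57BL/6 mice that had been through intermittent cold exposure (CE) were compared with wild-type mice kept at room temperature (Control), to find how repeated cold changes the messenger RNA of the liver. The comparison used 10 of the 20 libraries of the study, picked by the genotype and treatment in their labels: 5 from Control mice (replicates 1 to 5) and 5 from CE mice (replicates 6 to 10), 1 library for each. CE mice were 5 weeks old at the start and were placed at 4 °C for 3 h per day over 3 weeks, whereas Control mice stayed at 24 °C, and all had a dark phase of 12 h. The other 10 libraries came from mice without functional Sirt2, a deacetylase that depends on NAD, with the same treatments (Sirt2-/- and Sirt2-/-/CE), and they serve here only beside the wild-type values. The sex of these mice, the hour at which livers were taken and the time since the last cold bout are not given in the sources used here, and the labels give no batch. The labels do not say whether littermates or cages were shared, so p-values measure only the spread between these libraries.

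Repeated cold raises the demand for heat, which mice meet with brown fat and muscle, and the liver supplies these tissues with glucose and lipids. Hepatocytes also make most plasma proteins, which are folded in the endoplasmic reticulum (ER). When folding demand exceeds capacity, the sensors ATF6, IRE1 and PERK start the unfolded protein response, which raises the transcription of ER chaperones.

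Whole-gene read counts were deposited for each library. Total counts were lower in CE, at 35499796 to 47889475 (median 40627312), than in Control, at 44222098 to 53917339 (median 50975739; exact two-sided permutation p = 0.0238), and the part of this difference in the results below was not tested. Values are given as CPM, the counts of a gene scaled to library size with TMM factors, and as log2 fold changes of CE over Control. Hepatocyte markers made up 97200 to 175700 CPM in the wild-type libraries, and none of these libraries lacked them. A few libraries stood apart. Control replicate 3 lay at the lower end of the first principal component (-75.74, 23.6% of the variance), while the other Control mice lay between -37.69 and 30.01, and it had 848 CPM of Saa1 against 17.5 to 37.3 CPM in those mice. CE replicate 9 differed in its clock genes and CE replicate 8 lay farthest out on the second component (73.23). Control replicate 4, at 30.01 on the first component, lay within the range of the CE mice (1.84 to 59.17). By the median chi-square between libraries, it was nearer to CE replicates 7 (5.32), 6 (6.6) and 10 (6.83) than to any Control mouse (8.15 or more). Main values are therefore also given without such libraries where these change them. Sirt2 had 40.2 to 56.2 CPM in the wild-type mice and 16.9 to 27.5 CPM in the Sirt2-/- and Sirt2-/-/CE mice, without overlap, although counts of the whole gene do not show the deletion itself.

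Few genes passed the test that was chosen. With edgeR's quasi-likelihood test, 1 of 15616 genes tested (0.0064%) differed between CE and Control at an adjusted p under 0.05. At an unadjusted p under 0.05, 859 genes were higher in CE (5.5% of those tested) and 815 were lower (5.22%). The median log2 fold change of all genes was -0.008. In 474 genes (3.04%) the CE mice and the Control mice did not overlap, 274 higher in CE (1.75%) and 200 lower (1.28%). Other tools called more, namely 188 genes with DESeq2 (1.2%) and 540 with limma voom (3.46%). They shared 157 calls, which is 83.5% of the DESeq2 list and 29.1% of the voom list. Because edgeR called a single gene, members of the groups below are described as higher or lower, with their values, and calls by the other tools are named as such.

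ER chaperones and folding enzymes had higher levels in CE in most members. Of 26 genes of the unfolded protein response, 21 were higher in CE and 5 lower, and the median log2 fold change was 0.62 (all genes tested, -0.008). At an unadjusted p under 0.05, 16 were higher and 1 was lower, where 5.5% of all genes tested were higher. In 11 of the 26, every CE mouse was above every Control mouse, against 1.75% of all genes tested. By edgeR, 0 of the 26 had an adjusted p under 0.05, voom called 9 as higher (2.11% of all genes tested) and DESeq2 called 3 as higher (0.647%). Leaving out each library in turn gave medians of 0.53 to 0.69 and 13 to 17 members higher at an unadjusted p under 0.05. Without Control replicate 3 and CE replicate 9, an alternative chosen after the data were seen, the median was 0.53 with 13 members.

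Some of these genes carry the ER stress response element (ERSE), the site through which ATF6 with NF-Y acts on chaperone genes. In the RefSeq promoter windows of GRCm38.p6, which reach from 250 bases before to 50 after the start, 24 of the 26 genes had a window, and the letters CCAAT and CCACG with 9 bases of any kind between them were found on either strand in 9 of these 24 (37.5%) but in 37 of all 27025 genes (0.14%). The 9 were Calr, Canx, Creld2, Derl3, Dnajc3, Hsp90b1, Hspa5, Pdia6 and Syvn1. All 9 were higher in CE, with a median log2 fold change of 0.69, and in 6 of them the groups did not overlap. Of the 15 without a match, 10 were higher, with a median of 0.34 and 3 without overlap. A match describes the letters of the window and does not show that a factor was bound. The list was made of known genes of the response, so its share of matches partly follows from that choice. Genes without a match include Atf4, Asns, Trib3 and Chac1 of the PERK arm. The 2 sets therefore differ in kind, and a role of the element was not tested. The 250 bases before the start are shown for 5 members whose groups did not overlap, since they show how the element sits in genes of different function. They read 5′ to 3′ on the strand of the gene, with the element in capitals, and the element of Creld2 and the second of the pair in Hsp90b1 are on the other strand.
Hspa5 (chr2:34771840-34772089, forward strand): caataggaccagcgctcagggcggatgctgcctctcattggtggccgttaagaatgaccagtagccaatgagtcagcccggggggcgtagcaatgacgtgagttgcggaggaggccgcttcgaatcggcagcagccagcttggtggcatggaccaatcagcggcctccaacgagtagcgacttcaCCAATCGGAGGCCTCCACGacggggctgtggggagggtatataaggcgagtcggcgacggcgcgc
Hsp90b1 (chr10:86705445-86705694, reverse strand): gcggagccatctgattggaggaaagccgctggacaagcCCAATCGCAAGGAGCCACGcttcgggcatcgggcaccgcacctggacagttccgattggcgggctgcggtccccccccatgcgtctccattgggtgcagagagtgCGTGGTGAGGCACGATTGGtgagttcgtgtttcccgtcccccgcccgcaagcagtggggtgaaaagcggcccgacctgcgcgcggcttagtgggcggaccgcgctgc
Creld2 (chr15:88819396-88819645, forward strand): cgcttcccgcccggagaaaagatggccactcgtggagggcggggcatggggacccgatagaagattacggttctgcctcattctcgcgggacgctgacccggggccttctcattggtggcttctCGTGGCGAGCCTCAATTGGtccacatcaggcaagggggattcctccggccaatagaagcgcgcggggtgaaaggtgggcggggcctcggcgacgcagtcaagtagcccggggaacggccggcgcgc
Syvn1 (chr19:6046326-6046575, forward strand): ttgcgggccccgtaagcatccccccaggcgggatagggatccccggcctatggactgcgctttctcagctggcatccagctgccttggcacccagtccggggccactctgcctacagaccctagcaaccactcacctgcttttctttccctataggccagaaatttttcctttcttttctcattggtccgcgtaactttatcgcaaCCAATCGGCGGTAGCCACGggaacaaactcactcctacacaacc
Dnajc3 (chr14:118937682-118937931, forward strand): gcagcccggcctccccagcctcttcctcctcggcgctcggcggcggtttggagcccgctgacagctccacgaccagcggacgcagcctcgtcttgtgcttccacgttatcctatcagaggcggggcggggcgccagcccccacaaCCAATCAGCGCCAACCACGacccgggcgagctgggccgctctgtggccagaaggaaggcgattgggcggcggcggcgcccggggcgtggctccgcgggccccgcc

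Among the chaperones, Hspa5, which encodes BiP, the main ER chaperone of the HSP70 family, had 575, 654, 425, 715 and 538 CPM in the Control mice and 849, 1084, 852, 866 and 1027 CPM in the CE mice. All CE mice were above all Control mice (log2 fold change 0.69, standard error 0.28, edgeR adjusted p = 0.372). Hsp90b1, the HSP90 protein of the ER, showed no overlap either, at 609 ± 75.3 CPM in Control and 873 ± 174 CPM in CE (SD, n = 5 each, log2 fold change 0.52, standard error 0.22, edgeR adjusted p = 0.41). Hyou1, a large HSP70-type protein that exchanges nucleotides on BiP, had 119, 137, 44.8, 169 and 99 CPM in the Control mice and 230.4, 265, 210.2, 223 and 297 CPM in the CE mice. The lowest CE value was above the highest Control value (log2 fold change 1.11, standard error 0.35, edgeR adjusted p = 0.241).

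The members with the lowest p were BiP partners and disulfide isomerases. Sdf2l1, which forms a complex with the BiP co-chaperone ERdj3, had 8.73, 17.8, 9.77, 30.6 and 23 CPM in the Control mice and 38.2, 53.8, 44, 64.5 and 45.8 CPM in the CE mice. Every CE mouse lay above every Control mouse, and this was the gene of the list with the lowest unadjusted p (log2 fold change 1.45, standard error 0.39, edgeR adjusted p = 0.193; adjusted p = 0.021 with DESeq2 and 0.0129 with voom). Dnajc3, an ER co-chaperone also known as p58IPK, had 192, 230.4, 209.5, 294 and 197 CPM in the Control mice and 321, 394, 359, 443 and 294 CPM in the CE mice. Its groups met closely at 294 CPM without overlapping (log2 fold change 0.69, standard error 0.19, edgeR adjusted p = 0.196). Pdia4, a protein disulfide isomerase, had 106, 114, 88.7, 141 and 118 CPM in the Control mice and 149.7, 232, 163, 257 and 229.6 CPM in the CE mice, again without overlap (log2 fold change 0.86, standard error 0.24, edgeR adjusted p = 0.199). Pdia6 (0.67), Dnajb11 (0.73, which encodes ERdj3), Pdia3 (0.51), Calr (0.66) and Canx (0.42), the last of which encode the lectin chaperones calreticulin and calnexin, were also higher on the log2 scale, and each was called by voom.

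Creld2, an ER protein with disulfide isomerase activity, had 25.7, 32.2, 13.9, 42.9 and 24 CPM in the Control mice and 60.4, 83.6, 61, 95.5 and 77 CPM in the CE mice. Its log2 fold change was 1.44 (standard error 0.49, edgeR adjusted p = 0.28), with no overlap. Syvn1, the ubiquitin ligase HRD1 of ER-associated degradation, had 46.2, 52.9, 30.2, 64.3 and 41.8 CPM in the Control mice and 74.9, 118, 81.3, 83.4 and 142 CPM in the CE mice, also without overlap (log2 fold change 1.09, standard error 0.37, edgeR adjusted p = 0.281). Derl3, a further degradation factor, had the largest fold of the list (log2 fold change 2.64, standard error 0.80, edgeR adjusted p = 0.23), with 11 CPM in CE replicate 8 and 20.7 CPM in CE replicate 9, while the other CE mice had 1.12 to 2.32 CPM. Its log2 fold change was 1.79 with CE replicate 9 left out.

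Members of the other arms had values of either sign. Xbp1, the factor that IRE1 activates by splicing, had 212, 208, 344, 363 and 272 CPM in the Control mice and 165, 176, 178, 148 and 223 CPM in the CE mice. It was lower in CE in total message (log2 fold change -0.65, standard error 0.26, edgeR adjusted p = 0.36), and whole-gene counts do not separate its spliced form. Among genes of the PERK arm, Atf4 (-0.11), Asns (-0.15), Trib3 (0.04) and Chac1 (-0.54) had log2 fold changes of either sign with edgeR adjusted p of 0.904 to 0.989, and each changed sign or reached 0 without some single library. Sesn2, a stress gene that ATF4 also acts on, had 6.24, 5.75, 5.11, 5.37 and 5.80 CPM in the Control mice and 7.70, 6.95, 12.5, 6.57 and 8.64 CPM in the CE mice, so that every CE mouse was above every Control mouse (log2 fold change 0.58, standard error 0.33, edgeR adjusted p = 0.568). Ddit3, which encodes CHOP, had 3.76, 3.73, 3.36, 4.48 and 3.87 CPM in the Control mice and 7.24, 12.8, 7.89, 3.92 and 5.44 CPM in the CE mice, so that CE replicate 9 lay within the Control range (log2 fold change 0.96, standard error 0.38, edgeR adjusted p = 0.361). Herpud1 (0.07, from -0.28 to 0.22 over the removal of each library) and Dnajb9 (-0.30, from -0.47 to -0.09), both also targets of the response, had adjusted p of 0.976 and 0.794 by edgeR.

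**Figure D1:**
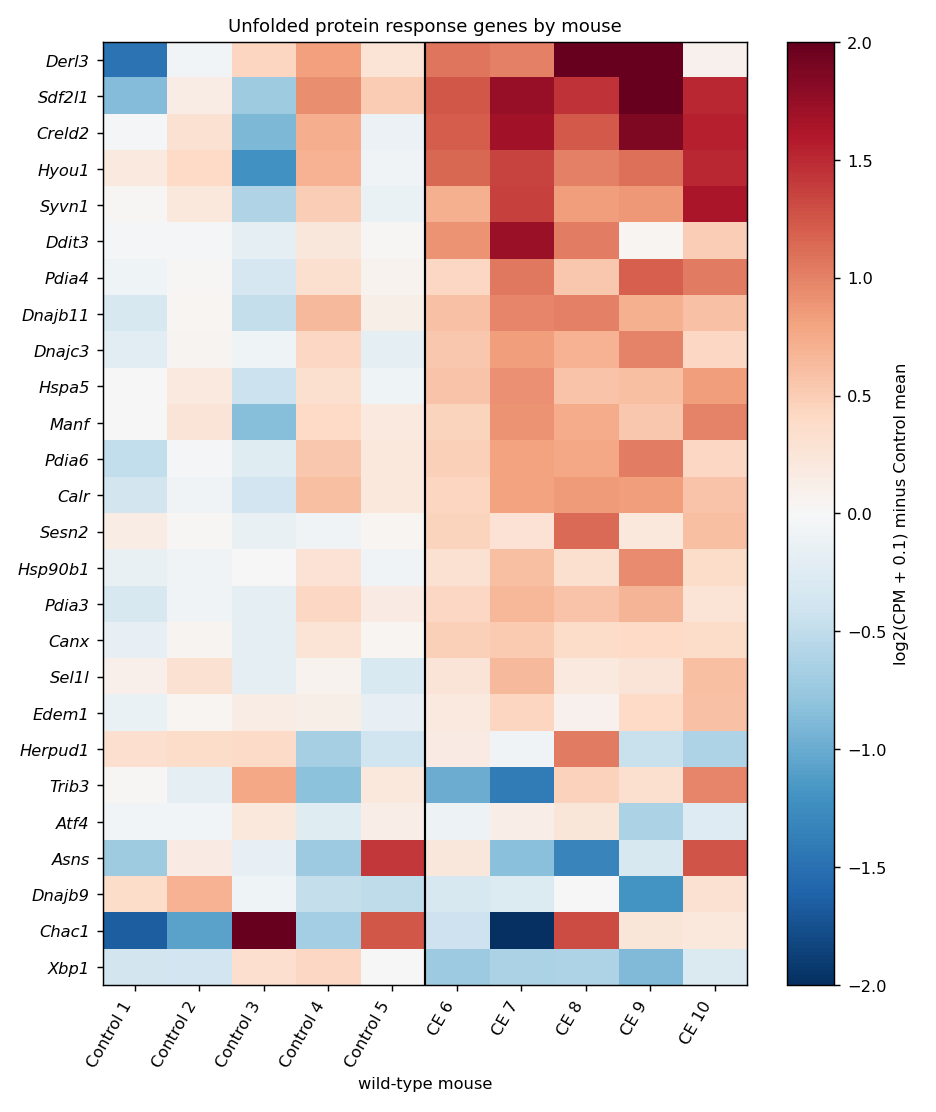
Rows are the 26 unfolded protein response genes, ordered by log2 fold change, and columns are the 10 wild-type mice; color is log2(CPM + 0.1) minus the mean of the Control mice, capped at -2 and 2 on the scale. Most rows from Derl3 to Edem1 are red in the 5 CE mice, Control replicate 3 is blue for several chaperones such as Hyou1, Creld2 and Manf, and Xbp1 in the last row is blue in CE.

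Acute phase genes, which hepatocytes express for the plasma proteins of inflammation, were also higher in CE but less evenly. Of 22 genes, 18 were higher and 4 lower, with a median log2 fold change of 0.45 (all genes tested, -0.008). At an unadjusted p under 0.05, 10 were higher and 1 lower (5.5% and 5.22% of all genes tested), while by edgeR 0 had an adjusted p under 0.05. Voom called 6 higher and 1 lower (2.11% and 1.35% of all genes tested), and DESeq2 called 4 higher (0.647%). The size depended on Control replicate 3. Without it the median was 0.93 and 18 members were higher at an unadjusted p under 0.05, and over the removal of each library these ranged from 0.34 to 0.93 and from 5 to 18. That number was 5 without Control replicates 1 or 2 or CE replicate 8 and 6 without Control replicate 5 or CE replicate 10. The lowest median, 0.34, came without CE replicate 8. With Control replicate 3 and CE replicate 9 both left out, it was 1.02.

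Crp, the gene of C-reactive protein, had 229, 242, 247, 407 and 259 CPM in the Control mice and 375, 441, 525, 537 and 576 CPM in the CE mice. Only Control replicate 4 reached into the CE range (log2 fold change 0.83, standard error 0.17, edgeR adjusted p = 0.122; adjusted p = 0.00265 with DESeq2 and 0.00295 with voom). Lbp, which encodes the lipopolysaccharide-binding protein, had 42.4, 40.7, 94.6, 63.5 and 40.2 CPM in the Control mice and 69.3, 91.7, 264, 113 and 154 CPM in the CE mice. The top Control mouse, replicate 3, was above the lowest pair of CE mice (log2 fold change 1.30, standard error 0.31, edgeR adjusted p = 0.166).

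Orm1 and Orm2 encode the orosomucoids, abundant plasma glycoproteins. Orm1 had 350.0, 436, 691, 629.7 and 599 CPM in the Control mice and 559, 868, 1289, 905 and 1344 CPM in the CE mice, with overlap through CE replicate 6 (log2 fold change 0.88, standard error 0.24, edgeR adjusted p = 0.193). Orm2 had 11.2, 13.7, 44.3, 25.9 and 7.59 CPM in the Control mice and 21.5, 96.8, 111, 67.9 and 516 CPM in the CE mice, and CE replicate 10 was far above the other mice (log2 fold change 2.99, standard error 0.74, edgeR adjusted p = 0.171). Without that mouse its log2 fold change was 1.86. For Saa1, serum amyloid A, Control replicate 3 equalled the highest CE mice, at 36.4, 21.5, 848, 37.3 and 17.5 CPM in the Control mice and 37.6, 288, 848, 299.98 and 858 CPM in the CE mice (log2 fold change 1.28, standard error 0.93, edgeR adjusted p = 0.676). Without Control replicate 3 its log2 fold change was 4.05. Saa1 shares near-identical sequence with Saa2, so their counts may have been split.

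Hamp was lower in CE. It encodes hepcidin, the hormone that limits iron release into blood, and it had 819, 457, 1056, 332 and 331 CPM in the Control mice and 231, 181, 150.5, 33.1 and 82.8 CPM in the CE mice. All CE mice were below all Control mice, and this was the only acute phase member without overlap (log2 fold change -2.14, standard error 0.62, edgeR adjusted p = 0.207; voom adjusted p = 0.0191, DESeq2 adjusted p = 0.0564).

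Heat shock genes and the pair of cold-inducible RNA-binding proteins were listed together. Of 19 genes, 15 were higher in CE and 4 lower (median log2 fold change 0.54), with 6 higher and 2 lower at an unadjusted p under 0.05 (5.5% and 5.22% of all genes tested) and 0 of the 19 at an edgeR adjusted p under 0.05. Voom called 4 higher (Hsp90aa1, Hsp90ab1, Hspb1 and Ahsa1) and 2 lower (2.11% and 1.35% of all genes tested), and DESeq2 called 0. Groups overlapped in all 19. Over the removal of each library the median ranged from 0.35, without CE replicate 7, to 0.72, without Control replicate 4, and the number higher at an unadjusted p under 0.05 from 1 to 8. That number was 1 without Control replicate 3 or CE replicate 7, 2 without Control replicate 1 and 3 without Control replicate 5. Without both Control replicate 3 and CE replicate 9, the median was 0.45, with 2 members higher and 1 lower at that threshold. Hsp90aa1, the inducible cytosolic HSP90, had 95.8, 129, 88.2, 266 and 113 CPM in the Control mice and 331, 415, 187, 336 and 195 CPM in the CE mice (log2 fold change 1.08, standard error 0.37, edgeR adjusted p = 0.279). Control replicate 4 overlapped the CE mice while the other Control mice were below them. Hspa1b, an inducible HSP70, had 23.5, 26.6, 4.05, 21.5 and 11 CPM in the Control mice and 47.1, 79.7, 26.9, 19.1 and 28.5 CPM in the CE mice (log2 fold change 1.21, standard error 0.62, edgeR adjusted p = 0.51), and its log2 fold change was 0.80 without CE replicate 7. Hspa1b was not searched for near-identical genes, so its reads may be shared. Hspa1a, also in the list, had a log2 fold change of 0.96 (standard error 0.89, edgeR adjusted p = 0.775).

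Lower at an unadjusted p under 0.05 were Rbm3 and Cirbp, whose proteins are known for their induction in mildly cooled cells. Rbm3 had 50.3, 39.6, 79.7, 31 and 44.8 CPM in the Control mice and 32, 30.2, 31.8, 12.2 and 17.3 CPM in the CE mice. CE replicates 6 and 8 were just above the lowest Control mouse, replicate 4 (log2 fold change -0.99, standard error 0.30, edgeR adjusted p = 0.229). Without Control replicate 3 and CE replicate 9 its log2 fold change was -0.57. Cirbp had 12.3, 9.34, 18.2, 6.55 and 12.1 CPM in the Control mice and 4.76, 4.85, 9.67, 5.04 and 5.03 CPM in the CE mice, with CE replicate 8 well above the other CE mice (log2 fold change -0.99, standard error 0.34, edgeR adjusted p = 0.279). These were the 2 lower calls by voom. Rbm3 holds a stretch of near-identical sequence with Phospho2, so its reads may be shared.

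Slc2a2 and Pklr, which act at the entry of glucose and at the last step of glycolysis, were lower in CE, whereas most genes of glycolysis differed little. Slc2a2, the gene of GLUT2, through which glucose crosses the hepatocyte membrane, had 393, 414, 313, 240.0 and 271 CPM in the Control mice and 190.1, 165, 149, 137 and 188 CPM in the CE mice. Every CE mouse was below every Control mouse (log2 fold change -0.97, standard error 0.24, edgeR adjusted p = 0.171; adjusted p = 0.0201 with DESeq2 and 0.00366 with voom). Pklr, the liver form of pyruvate kinase, had 331, 404, 144, 219 and 171 CPM in the Control mice and 134, 134, 65.8, 97.9 and 113 CPM in the CE mice. Its groups did not overlap either (log2 fold change -1.22, standard error 0.33, edgeR adjusted p = 0.193; adjusted p = 0.0312 with DESeq2 and 0.0117 with voom), though Control replicate 3, at 144 CPM, came near the highest CE mice, at 134 CPM. Part of the exons of Pklr (22%) overlaps Hcn3 on the other strand, and strand handling of the counts is not given in the sources used here.

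Slc2a1, the widely expressed transporter GLUT1, was higher in CE, at 8.52, 6.93, 8.07, 9.19 and 11 CPM in the Control mice and 17, 13, 15.6, 10.6 and 11 CPM in the CE mice (log2 fold change 0.62, standard error 0.19, edgeR adjusted p = 0.242). Pkm, the gene of the muscle-type pyruvate kinases that the study is about, had 12.6, 13.1, 18.3, 36.6 and 38.7 CPM in the Control mice and 161, 13.6, 6.51, 16.9 and 12 CPM in the CE mice. Its fold change rested on CE replicate 6 (log2 fold change 0.82, standard error 0.64, edgeR adjusted p = 0.71), and it was -0.96 without that mouse. Over the 21 genes of glycolysis, 14 were higher and 7 lower, with a median log2 fold change of 0.07. At an unadjusted p under 0.05 there were 2 in each direction (5.5% of all genes tested were higher and 5.22% lower), and edgeR called 0 of the 21. Voom called Slc2a1 as higher (adjusted p = 0.042) and 2 as lower (2.11% and 1.35% of all genes tested), and DESeq2 called 2 as lower (0.557%). The median changed sign over the removal of each library, in a range from -0.11 to 0.14.

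Glycogen genes tended to lower values. Of 14, 11 were lower and 3 higher (median log2 fold change -0.15), and 5 were lower and 0 higher at an unadjusted p under 0.05, where 5.22% of all genes tested were lower. EdgeR called 0 of the 14, voom 3 as lower (1.35% of all genes tested) and DESeq2 only Phka2 (0.557% lower). Without overlap were Phka2, a subunit of phosphorylase kinase, Ugp2, which makes the UDP-glucose that glycogen synthase uses, and Gbe1, the branching enzyme, where 1.28% of all genes tested were lower without overlap. Over the removal of each library the median of the list ranged from -0.25 to -0.07, and the number lower at an unadjusted p under 0.05 from 3, without Control replicate 2, to 5. It was 2 without both Control replicate 3 and CE replicate 9. Ugp2 had 346, 435, 349, 322 and 319.5 CPM in the Control mice and 282, 263, 236, 265 and 239 CPM in the CE mice (log2 fold change -0.46, standard error 0.16, edgeR adjusted p = 0.279). Phka2 had 26, 22.7, 24.1, 17.2 and 20.6 CPM in the Control mice and 15.2, 10.1, 13.9, 17.1 and 14.9 CPM in the CE mice, its groups almost touching (log2 fold change -0.64, standard error 0.16, edgeR adjusted p = 0.183). Gbe1 was at 130.1 ± 8.38 CPM in Control and 99.3 ± 14.8 CPM in CE (SD, n = 5 each, log2 fold change -0.39, standard error 0.18, edgeR adjusted p = 0.443). Gys2, the liver glycogen synthase, had 360.1, 386, 479, 181 and 263 CPM in the Control mice and 216, 185, 221, 77.8 and 142 CPM in the CE mice (log2 fold change -0.99, standard error 0.37, edgeR adjusted p = 0.323), with overlap at Control replicate 4. The log2 fold change of Gys2 was -0.64 without Control replicate 3 and CE replicate 9. Pygl, the liver phosphorylase, was at 350.1 ± 48.2 CPM in Control and 334 ± 76 CPM in CE (SD, n = 5 each, log2 fold change -0.07, standard error 0.21, edgeR adjusted p = 0.958).

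Genes with the lowest p over the whole table were taken 10 in each direction, among those of at least 1 FPKM without overlap between groups. Since the choice used these p-values, the separation of their groups is a description. Their edgeR adjusted p were 0.0191 for 3110082I17Rik and 0.0867 to 0.166 for the other 19, and DESeq2 and voom each called all 20. Each kept its direction when each of the 10 libraries was left out, which follows from choosing groups without overlap. The calls by DESeq2 and voom used the same counts as the choice, so they are a description too.

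3110082I17Rik, a protein-coding gene of unassigned function, fell in CE. It had 9.99, 7.45, 14.4, 6.84 and 9.0 CPM in the Control mice and 3.45, 2.59, 1.98, 3.02 and 3.05 CPM in the CE mice (log2 fold change -1.76, standard error 0.26, edgeR adjusted p = 0.0191). With each library left out, its adjusted p ranged from 0.00625 to 0.107 and stayed under 0.05 in 5 of 10 fits, and it was 0.0916 when only the 10 wild-type libraries were fitted. In GENCODE vM21 on GRCm38 it lies on chromosome 5 from 139359739 to 139460527, on the reverse strand. Gpr146, a receptor gene known in the liver for its link to plasma cholesterol, lies inside this span on the forward strand (chromosome 5 from 139377697 to 139396415) and shares no exon base with it. Gpr146 was also lower, at 119, 131, 191, 101 and 116 CPM in the Control mice and 44.7, 40.3, 61.8, 50.4 and 87.1 CPM in the CE mice (log2 fold change -1.21, standard error 0.28, edgeR adjusted p = 0.157). C130050O18Rik, which overlaps 12.5% of the exon bases of 3110082I17Rik on the other strand and was looked at after its neighbors, had 0.538 ± 0.221 CPM in Control and 0.615 ± 0.493 CPM in CE (SD, n = 5 each, log2 fold change 0.20, standard error 0.51, edgeR adjusted p = 0.949).

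Among the lower genes with a known role, Pdk1, a kinase that holds pyruvate dehydrogenase inactive, had 118, 95.1, 101, 61.6 and 83.1 CPM in the Control mice and 59.5, 46.1, 34.3, 32.6 and 42.1 CPM in the CE mice (log2 fold change -1.09, standard error 0.24, edgeR adjusted p = 0.139). Acsm5, an acyl-CoA synthetase of medium-chain fatty acids in mitochondria, had 163, 173, 173, 131 and 144 CPM in the Control mice and 97.3, 73.9, 96.4, 87.3 and 97.7 CPM in the CE mice (log2 fold change -0.79, standard error 0.15, edgeR adjusted p = 0.0867). Pex26, which anchors the peroxisomal import machinery, had 33.3, 38.6, 69, 49.1 and 43.9 CPM in the Control mice and 21, 26, 21.7, 16.2 and 23.5 CPM in the CE mice (log2 fold change -1.11, standard error 0.25, edgeR adjusted p = 0.147). The other lower genes were Eif4e3 (-1.31), a cap-binding protein, Olfml1 (-1.01), Ttc23 (-0.80), Tmem237 (-1.10) and a gene predicted by the authors, Mus_musculus_newGene_203 (-1.28).

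Acnat2 had the largest fold among the higher genes. It encodes an acyltransferase that joins fatty acids to amino acids, and it had 5.70, 4.84, 6.83, 19.4 and 6.72 CPM in the Control mice and 32.2, 57.7, 54.4, 41.9 and 58.5 CPM in the CE mice (log2 fold change 2.49, standard error 0.51, edgeR adjusted p = 0.122). Its near-identical neighbor Acnat1 held up to 80.7% of the counts of the pair, so the share of reads assigned to each is uncertain. Insc, whose protein orients the mitotic spindle, had 6.37, 6.85, 9.94, 14.4 and 9.65 CPM in the Control mice and 20.5, 24.3, 18.1, 20.2 and 20.1 CPM in the CE mice (log2 fold change 1.13, standard error 0.22, edgeR adjusted p = 0.0867). Pnkd, named for a movement disorder, had 34.2, 40.0, 22.4, 55.5 and 34.5 CPM in the Control mice and 67.9, 90.9, 65.4, 111 and 71.9 CPM in the CE mice (log2 fold change 1.12, standard error 0.24, edgeR adjusted p = 0.122). Ypel2 (1.75), Baiap2 (1.28), an adaptor of the actin cytoskeleton, Desi2 (0.87), a desumoylating peptidase, Dnajc18 (0.85), a DnaJ protein of the ER membrane, the antisense gene Ctcflos (1.67), the pseudogene Cyp21a2-ps (2.11), which is near-identical to Cyp21a1, and Mus_musculus_newGene_931 (2.30) were the rest.

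**Figure D2:**
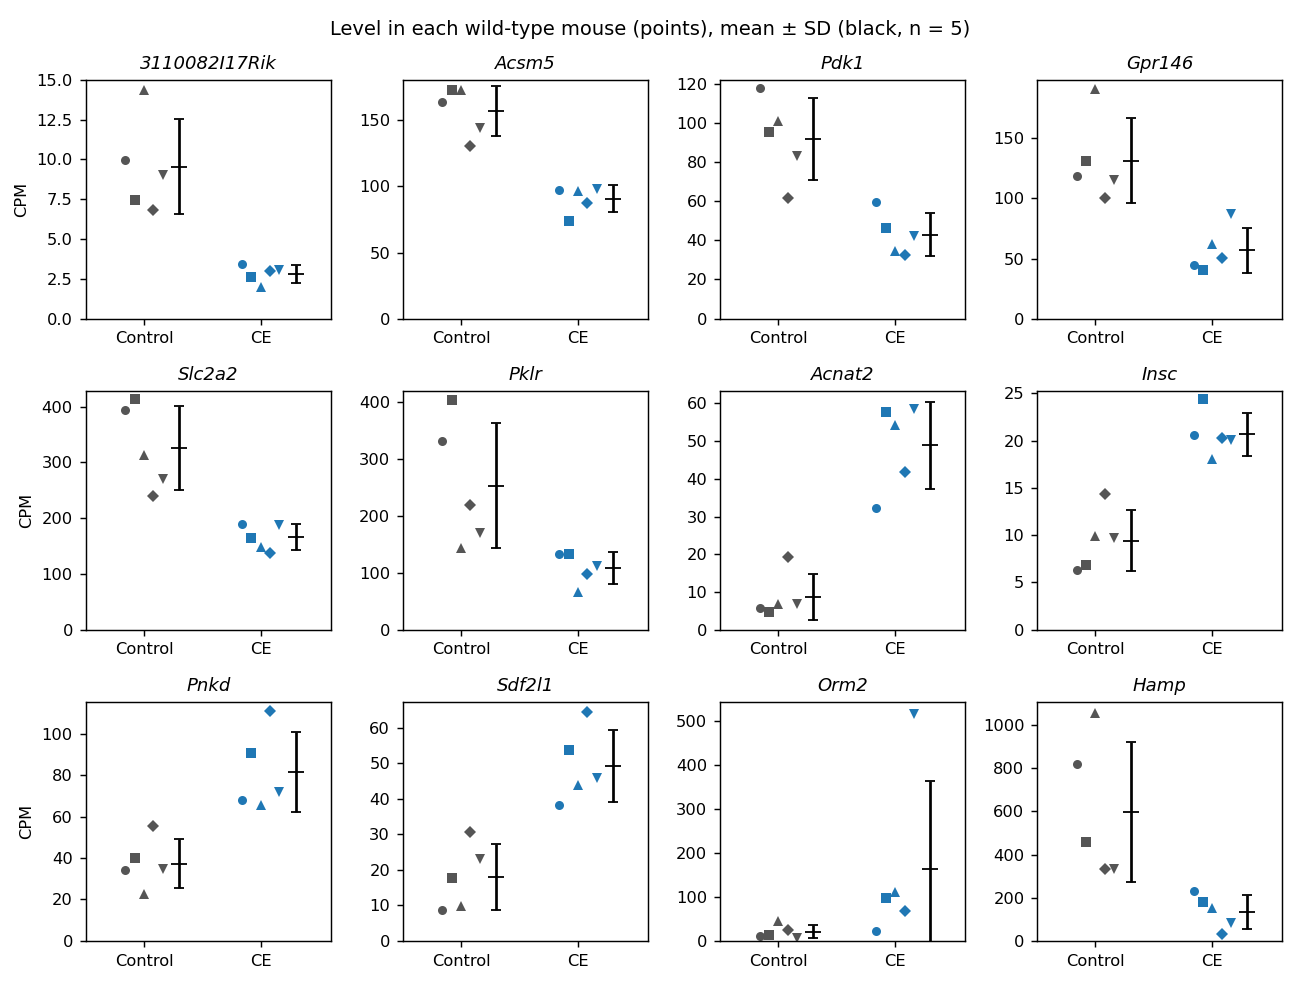
Each panel plots the CPM of 1 gene in the 5 Control (gray) and 5 CE (blue) mice, with symbols that only tell mice of a group apart and the mean ± SD in black (the lower bar of Orm2 is cut at 0). Groups are separate in all panels but Orm2, where CE replicate 10 reaches 516 CPM.

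Circadian clock genes had higher or lower values in CE by gene, and the CE mice also differed among themselves. Genes that peak at opposite hours are listed together, so the median of the list does not measure a shift of the clock. Of 19, 8 were higher and 11 lower (median log2 fold change -0.25, from -0.32 to -0.13 over the removal of each library), with 3 higher and 1 lower at an unadjusted p under 0.05 (5.5% and 5.22% of all genes tested) and 0 called by edgeR. In a fit of only the 10 wild-type libraries, 4 of 18 tested were lower and 3 higher at that threshold. With voom 4 were lower and 4 higher. The shares of all genes above belong to the main fit, and voom put more of all genes at that threshold. These counts therefore have no matching share here. Without Control replicates 1, 2 or 3 or CE replicate 9, 0 were lower. DESeq2 called Arntl as higher (adjusted p = 0.0401, 0.647% of all genes tested) and voom called Clock as higher (adjusted p = 0.0468, 2.11%). Per3, Dbp and Tef, output and feedback genes of the clock that peak together, showed no overlap, where 1.28% of all genes tested were lower without overlap. Per3 had 29.9, 24.8, 26.5, 24.9 and 26.5 CPM in the Control mice and 15.9, 19.7, 13.5, 1.01 and 15.9 CPM in the CE mice (log2 fold change -1.01, standard error 0.86, edgeR adjusted p = 0.745). Dbp had 99, 78.2, 89.6, 71.6 and 96.2 CPM in the Control mice and 18.8, 14, 43.5, 4.32 and 65.4 CPM in the CE mice (log2 fold change -1.57, standard error 0.96, edgeR adjusted p = 0.614). Tef had 218, 205, 201, 167 and 177 CPM in the Control mice and 133, 154, 158, 48.1 and 127 CPM in the CE mice (log2 fold change -0.65, standard error 0.53, edgeR adjusted p = 0.725). Dispersion was estimated over all 20 libraries, and these genes ranged widely in the Sirt2-/- mice, Dbp from 0.325 to 66.8 CPM.

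Arntl, which encodes BMAL1, the activator whose mRNA peaks opposite to that of Dbp, had 0.437, 0.851, 0.123, 3.28 and 0.537 CPM in the Control mice and 6.98, 11.9, 0.905, 20.8 and 3.13 CPM in the CE mice (log2 fold change 3.06, standard error 0.88, edgeR adjusted p = 0.202). Its log2 fold change was 4.15 with Control replicate 4 left out and 2.45 with CE replicate 9 left out. Its partner Clock had 17.7, 20.4, 9.87, 23.2 and 9.07 CPM in the Control mice and 31.7, 44.7, 18.6, 68.3 and 35.6 CPM in the CE mice (log2 fold change 1.31, standard error 0.43, edgeR adjusted p = 0.271), and the groups overlapped in both. CE replicate 9 was at an extreme for most of these genes, with the lowest Per3, Dbp and Tef and the highest Arntl and Clock, whereas Dbp in CE replicate 10 came near the lowest Control mouse. The hour of sampling and the treatment cannot be told apart here, since the sources used give no hour. An E-box, the letters CACGTG through which CLOCK and BMAL1 act, was found in the windows of 5 of 16 clock genes (31.25%) and of 8.09% of all genes. Such a share was not particular to the clock list. It was 33.33% in the thyroid hormone axis, 27.27% in glycogen and 25.0% in cholesterol synthesis genes, and 0.0% in acute phase genes.

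**Figure D3:**
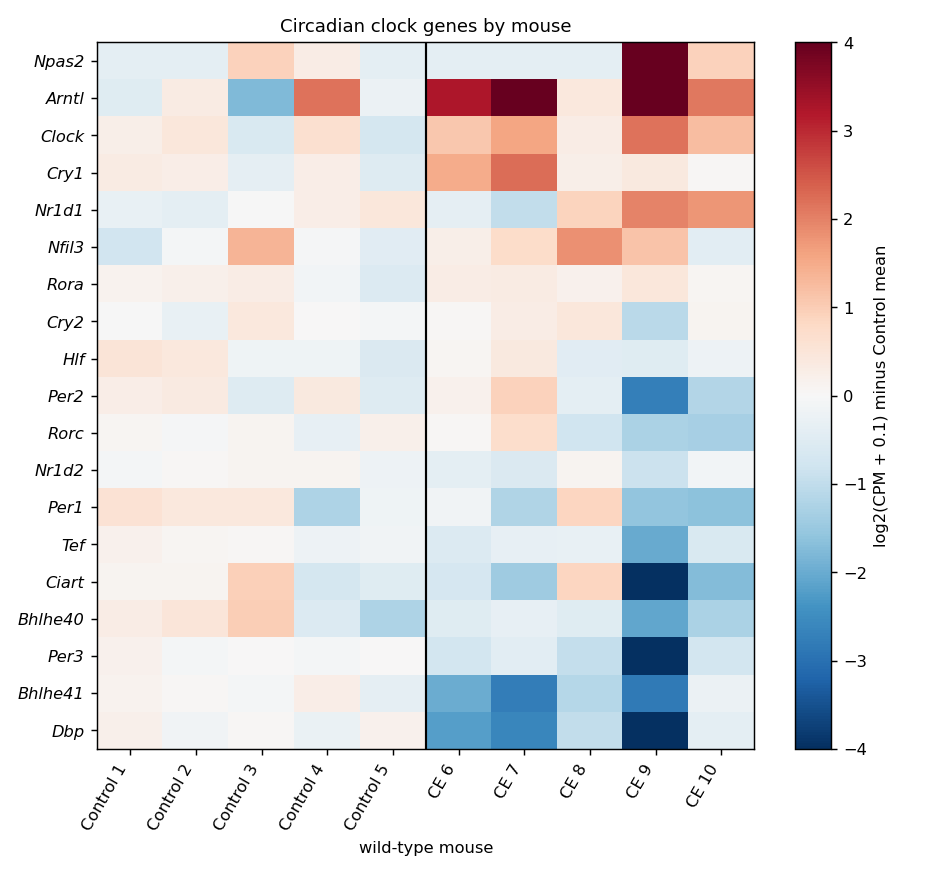
Rows are the 19 circadian clock genes, ordered by log2 fold change, and columns the 10 wild-type mice; color is log2(CPM + 0.1) minus the mean of the Control mice, capped at -4 and 4. Control columns are mostly pale, CE replicate 9 has strong colors of both signs, and CE replicates differ among themselves.

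**Figure D4:**
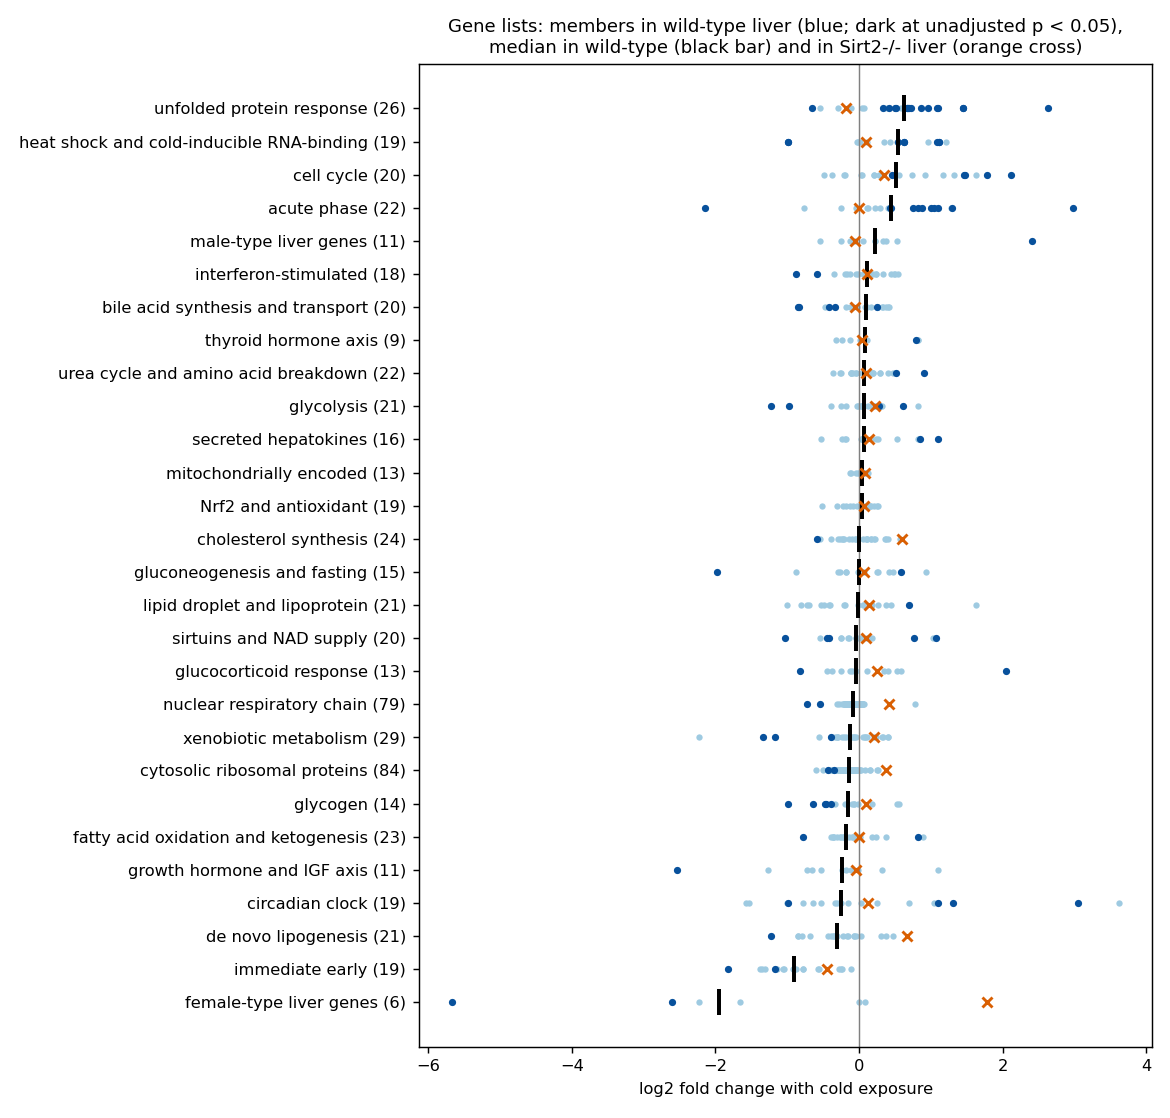
Each row is 1 of 28 gene lists with the number of members tested in parentheses; points are the log2 fold changes of members between CE and Control in wild-type liver (dark at an unadjusted p under 0.05), the black bar is their median, and the orange cross is the median between Sirt2-/-/CE and Sirt2-/-. The unfolded protein response has a wild-type median of 0.62 and a median of -0.18 in Sirt2-/- liver, while the median of female-type genes, -1.94 over 6 members tested, was -0.41 without Control replicate 3.

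Lipid and mitochondrial lists showed small medians in wild-type liver. De novo lipogenesis had 4 of 21 members higher and 17 lower, with a median log2 fold change of -0.31, and only Pklr reached an unadjusted p under 0.05, where 5.22% of all genes tested were lower. Leaving out CE replicate 8 gave a median of -0.15, leaving out Control replicate 2 gave -0.19, and 3 members were lower at that threshold without CE replicate 7 or 10. Fasn, fatty acid synthase, was at 557 ± 261 CPM in Control and 308 ± 232 CPM in CE (SD, n = 5 each, log2 fold change -0.85, standard error 0.52, edgeR adjusted p = 0.615), and its log2 fold change was -1.42 without CE replicate 7. Scd1, the stearoyl-CoA desaturase, was at 5777 ± 2944 CPM in Control and 3318 ± 1985 CPM in CE (SD, n = 5 each, log2 fold change -0.80, standard error 0.54, edgeR adjusted p = 0.653), and its log2 fold change was -0.51 without Control replicate 3. Fatty acid oxidation and ketogenesis had 6 of 23 members higher (median -0.17), cholesterol synthesis 12 of 24 (median 0.007) and gluconeogenesis and fasting 8 of 15 (median 0.003). Over the removal of each library, the median of oxidation and ketogenesis ranged from -0.26 to -0.10. That of cholesterol synthesis ranged from -0.10, with Control replicate 3 left out, to 0.19, with Control replicate 5 left out. It was -0.22 without both Control replicate 3 and CE replicate 9. The median of gluconeogenesis and fasting ranged from -0.05 to 0.21, the latter with Control replicate 3 left out. Nuclear genes of the respiratory chain had 68 of 79 members lower (median over all 79, -0.08), and cytosolic ribosomal protein genes had 76 of 84 lower (median -0.14). Of all 15616 genes tested, 7965 were lower. In each of these lists 2 members were lower at an unadjusted p under 0.05 (5.22% of all genes tested). Over the removal of each library their medians ranged from -0.12 to -0.03 and from -0.23 to -0.08, both nearest 0 without CE replicate 9. Relative to Control, mean log2 levels of the ribosomal genes were -0.426 and -0.347 in CE replicates 9 and 10. They were -0.12 to 0.096 in the other CE mice. The 13 genes encoded in mitochondria had a median of 0.04, from -0.02 to 0.11 over the removal of each library. Their share of counts was 7.36% to 9.15% in Control and 7.34% to 9.31% in CE.

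Markers of other cells of the liver were also followed, because a bulk library cannot tell fewer cells of a type from less RNA per cell. All 7 endothelial markers were lower in CE, with a median log2 fold change of -0.71 (2 at an unadjusted p under 0.05, where 5.22% of all genes tested were lower), and their summed level was 62.05 to 268.6 CPM in Control and 39.36 to 190.6 CPM in CE (exact two-sided permutation p = 0.135). All 11 lymphocyte markers were lower (median -1.0), at summed levels of 5.82 to 21.6 CPM and 4.21 to 14.8 CPM (exact permutation p = 0.302). Of 8 stellate cell and matrix markers, 5 were lower (median -0.50). Kupffer cell and macrophage markers were split, 6 higher and 6 lower (median 0.008), at 202.9 to 569.8 CPM in Control and 173.0 to 609.2 CPM in CE. The 8 hepatocyte markers had a median of 0.03. Skeletal muscle markers summed to at most 1.22 CPM and adipocyte markers to at most 8.86 CPM in any library. The part of these markers in the results above was not tested.

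The same treatment in Sirt2-/- mice, whose libraries are separate from all wild-type ones, was set beside these values. There, edgeR called 0 genes between Sirt2-/-/CE and Sirt2-/- (0.0%), with 1132 at an unadjusted p under 0.05 (7.25%). The interaction of genotype and CE also gave 0 calls (lowest adjusted p = 0.208 by edgeR), with 1303 genes at an unadjusted p under 0.05 (8.34%), while DESeq2 called 41, so a difference between genotypes was not shown for any gene by the main test. Of the 1674 genes at an unadjusted p under 0.05 in wild-type liver, 947 (56.6%) had the same sign in Sirt2-/- liver, as did 51.4% of all genes tested. Of the 20 genes with the lowest p among those of at least 1 FPKM without overlap, 10 in each direction, 11 had the same sign. Among these 11, 0 reached an unadjusted p under 0.05 in Sirt2-/- liver. Of the 20, 3 had the opposite sign at that threshold, namely Acnat2 (-1.15), Pdk1 (0.56) and Mus_musculus_newGene_931 (-0.93). The median size of the log2 fold changes of the 20 was 1.17 in wild-type liver, where they had been chosen, and 0.23 in Sirt2-/- liver.

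Unfolded protein response genes had a median of -0.18 in Sirt2-/- liver, with 10 of 26 in the same direction as in wild-type liver. The lowest interaction adjusted p among the 26 was 0.342 by edgeR. Hspa5 had 1839.9, 1555, 468, 1213 and 1861 CPM in the Sirt2-/- mice and 1595, 1373, 1019, 788 and 857 CPM in the Sirt2-/-/CE mice, so that 4 of the Sirt2-/- mice were above every wild-type mouse (log2 fold change -0.30, edgeR adjusted p = 0.884). Sdf2l1 had 79.9, 88.4, 18.7, 49.7 and 76.5 CPM in the Sirt2-/- mice and 89, 54.5, 43.3, 30.8 and 33.7 CPM in the Sirt2-/-/CE mice (log2 fold change -0.32, edgeR adjusted p = 0.939). Slc2a2 had 224, 211, 264, 115 and 212 CPM in the Sirt2-/- mice and 101, 183, 225, 209.6 and 296 CPM in the Sirt2-/-/CE mice (log2 fold change -0.02), and these levels overlapped those of both wild-type groups. Hamp had 169, 117, 45, 686 and 256 CPM in the Sirt2-/- mice and 615, 138, 171, 398 and 355 CPM in the Sirt2-/-/CE mice (log2 fold change 0.40). Medians of the acute phase (-0.002) and heat shock (0.09) lists were near 0 in Sirt2-/- liver. The sign was the same as in wild-type liver in 11 of 22 acute phase genes, 15 of 19 heat shock genes (78.9%), 16 of 19 immediate early genes (84.2%), 9 of 19 clock genes, 12 of 21 glycolysis genes and 5 of 14 glycogen genes, beside the 51.4% of all genes tested.

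**Figure D5:**
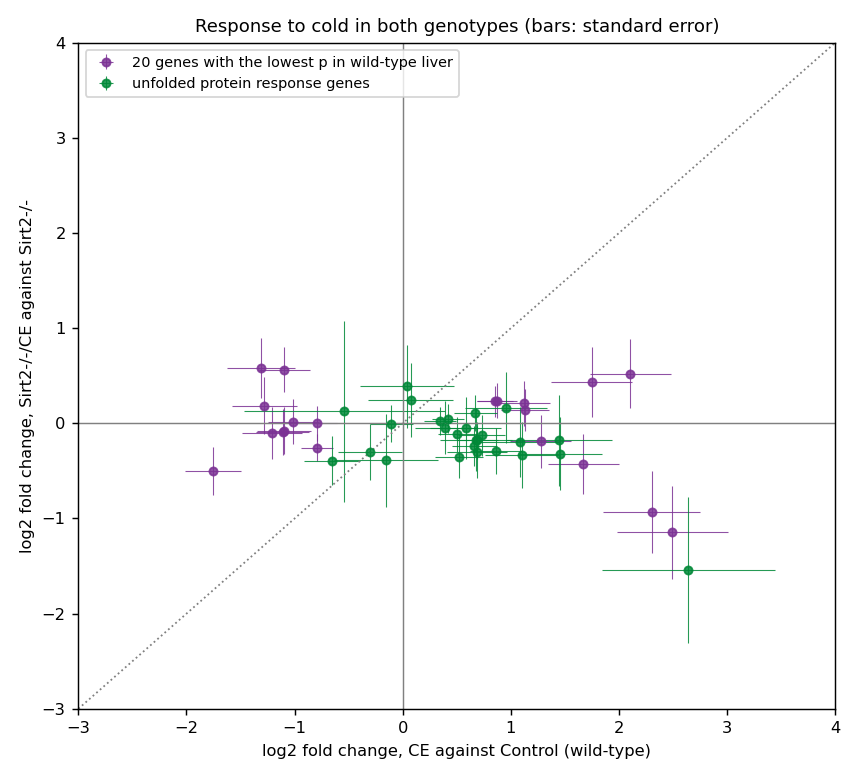
The log2 fold change with CE in wild-type liver (horizontal) is plotted against that in Sirt2-/- liver (vertical) for 20 chosen genes (purple) and the 26 unfolded protein response genes (green), with bars of 1 standard error and a dotted line of equal values. The 20 had the lowest wild-type p among genes of at least 1 FPKM without overlap between groups, 10 in each direction. Most points lie near 0 on the vertical axis, and the purple points were chosen on the horizontal one, with a median size of 1.17 against 0.23.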

How the data were processed

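Liver RNA of 20 libraries was enriched for poly(A) RNA on oligo(dT) beads, primed with random hexamers and sequenced by the authors. They deposited 1 table with whole-number read counts per gene, not normalized, and FPKM values for each library. The authors' FPKM are scaled to gene length and depth, and served here only for the 1 FPKM limit. The submitters' processing notes name mm10, while the aligner, the counter and the handling of strand and multiple hits are not given in the sources used here. Columns were matched to samples by their labels, with 0 columns left over. Of the 45306 genes, 1967 were predicted by the authors, and 9 lines without a gene were left out.

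Counts were tested in R 4.3.3 with edgeR 4.0.16, using filterByExpr (minimum count 10, minimum total 15), TMM scaling and 1 quasi-likelihood fit of all 20 libraries with group as the only term (common dispersion 0.147), two-sided, with Benjamini-Hochberg adjustment over 15616 genes and a threshold of 0.05. The filter kept at least 99.94% of counts. The F statistic of each gene gave the standard error of its log2 fold change. DESeq2 1.42.0, limma 3.58.1 (voom with sample quality weights), 3 other scalings, 2 other filters, a fit of the 10 wild-type libraries, a fold limit and the removal of each library were the alternatives. The scripts were tested on simulated counts. No pair among the 45 of the wild-type libraries was alike within sampling noise (lowest median chi-square 5.01, noise 0.455). Precision rests on the depth and on 5 mice per group.

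Genes named were those with an adjusted p under 0.05, the 10 in each direction with the lowest p among genes of at least 1 FPKM without overlap, up to 3 members of each list with the lowest p, Sirt2 and Pkm. Other list members were named for their role, and 6 more genes were picked with their values known. Some genes of these lists are counted in them but not reported here by name. The 28 gene lists, 12 marker lists and tests were chosen with earlier results of these data known, and no list was tested. Positions are from GENCODE vM21, promoters from RefSeq, and near-identical genes match at 95% over 150 bases. Figures used matplotlib 3.10.9 and Python 3.11.15.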

Additional observations from a re-analysis of the deposited data

Results flagged for a closer look

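For 98 genes, the 5 mice of each wild-type group were examined for a mouse whose gap to its nearest neighbor made up an unusual part of the range of its group (above 0.71, Dixon's 95% value for 5 samples). Of 196 groups of mice, 29 held such a mouse. About 1 in 20 groups would pass this limit only if values were normal and genes independent. The CPM of the genes named here need not be either, so the number is a description. Control replicate 3 accounted for 8 of them, and Control replicate 4 and CE replicate 8 for 6 each.

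Control replicate 1 stood apart from the rest of its group in Eif4e3 (0.814 of the range; 12.2 CPM, nearest 8.75 CPM). Control replicate 2 stood apart from the rest of its group in Ugp2 (0.749 of the range; 435 CPM, nearest 349 CPM). Control replicate 3 stood apart from the rest of its group in Abcg5 (0.718 of the range; 247 CPM, nearest 114 CPM), Btg2 (0.958 of the range; 195 CPM, nearest 16 CPM), Cux2 (0.955 of the range; 8.34 CPM, nearest 0.627 CPM), Gpcpd1 (0.831 of the range; 669 CPM, nearest 250.4 CPM), Hp (0.831 of the range; 5546 CPM, nearest 2484 CPM), Jun (0.853 of the range; 104 CPM, nearest 23 CPM), Saa1 (0.976 of the range; 848 CPM, nearest 37.3 CPM) and Txnip (0.750 of the range; 351 CPM, nearest 112 CPM). Control replicate 4 stood apart from the rest of its group in Acnat2 (0.863 of the range; 19.4 CPM, nearest 6.83 CPM), Arntl (0.770 of the range; 3.28 CPM, nearest 0.851 CPM), Crp (0.830 of the range; 407 CPM, nearest 259 CPM), Dnajc18 (0.796 of the range; 7.29 CPM, nearest 4.83 CPM), Hsp90aa1 (0.767 of the range; 266 CPM, nearest 129 CPM) and Slc16a10 (0.878 of the range; 139.8 CPM, nearest 94.2 CPM). Control replicate 5 stood apart from the rest of its group in Asns (0.750 of the range; 13.5 CPM, nearest 5.63 CPM).

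CE replicate 6 stood apart from the rest of its group in Pkm (0.933 of the range; 161 CPM, nearest 16.9 CPM). CE replicate 7 stood apart from the rest of its group in Ttc23 (0.868 of the range; 33.1 CPM, nearest 24.8 CPM). CE replicate 8 stood apart from the rest of its group in Btg2 (0.879 of the range; 34.1 CPM, nearest 10.9 CPM), Cirbp (0.942 of the range; 9.67 CPM, nearest 5.04 CPM), Hp (0.723 of the range; 12847 CPM, nearest 5393 CPM), Jun (0.753 of the range; 32.8 CPM, nearest 17.5 CPM), Mus_musculus_newGene_931 (0.755 of the range; 20.7 CPM, nearest 9.08 CPM) and Olfml1 (0.853 of the range; 3.51 CPM, nearest 7.31 CPM). CE replicate 9 stood apart from the rest of its group in Elovl3 (0.853 of the range; 509 CPM, nearest 99.2 CPM), Npas2 (0.938 of the range; 2.38 CPM, nearest 0.148 CPM) and Tef (0.717 of the range; 48.1 CPM, nearest 127 CPM). CE replicate 10 stood apart from the rest of its group in Orm2 (0.820 of the range; 516 CPM, nearest 111 CPM).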

How the results depend on the processing

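The count of genes called between CE and Control depended most on the tool. It was 1 with edgeR, 188 with DESeq2, 540 with voom and 0 when only the 10 wild-type libraries were fitted, and it ranged from 0 to 68 over the removal of each library. The highest, 68, came without Control replicate 4, and it was 0 without Control replicates 1 or 3 or CE replicates 7, 8 or 9, 3 without Control replicate 5, and 2 without CE replicates 6 or 10. Without Control replicate 3 and CE replicate 9, an alternative added with the data in view, it was 0. Genes at an unadjusted p under 0.05 numbered 3248 with voom. The interaction of genotype and CE gave 41 genes with DESeq2 and 0 to 2 over the removal of each library, with 2 without Control replicate 4. The cause of these differences was not tested.

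Of 147 genes chosen by the rule, named for their role or singled out, 134 kept their direction under every alternative that gave a value. For genes chosen because their groups did not overlap, this largely follows from the choice. The values that reversed or reached 0 were those of Btg2 (0.11 without Control replicate 3, in a range from -2.48 over single libraries, and 0.18 without both Control replicate 3 and CE replicate 9), Cyp4a12a (-0.13) and Cyp2a4 (0.01) without the same pair, mt-Co2 (-0.01, range up to 0.12) without CE replicate 8, Pkm (-0.96, up to 1.09) and C130050O18Rik (-0.33, up to 0.49) without CE replicate 6, Pygl (0.06, from -0.15) without CE replicate 8, and Jun (0.15, from -1.19) and Chac1 (0.28, from -1.06) without Control replicate 3, with 0.26 and 0.27 without the pair. Over single libraries Atf4 reached 0.0 (from -0.2), and Herpud1 ranged from -0.28 to 0.22, Trib3 from -0.29 to 0.27 and Asns from -0.7 to 0.4. Atf4 was at 0.06 without the pair, and with voom Herpud1 was at -0.23, Trib3 at -0.25, Asns at 0.06 and Chac1 at 0.10. Medians of the lists of the clock, glycolysis, glycogen, unfolded protein response, heat shock, immediate early and acute phase genes moved in each alternative by less than the larger of the SDs between mice of the 2 groups. By the smaller SD, that of glycolysis moved further without CE replicate 6 (-0.11), and that of immediate early genes with voom (-0.42), without Control replicate 3 (-0.01, in a range from -1.19 over single libraries) and without the pair (0.01). No paired analysis was possible because the replicate numbers run from 1 to 20 and no groups share a number. Low genes such as Npas2, at 0 CPM in 3 Control mice, are limited by depth, and 5 mice a group limit the rest.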

Other observations

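The genes in this paragraph were picked with their values known. Rgs16, a regulator of G-protein signaling that follows feeding and the clock in liver, had 159, 97.2, 178, 14.1 and 25.5 CPM in the Control mice and 4.76, 1.35, 14.7, 6.40 and 2.96 CPM in the CE mice (log2 fold change -3.97, standard error 0.78, edgeR adjusted p = 0.0867), with a log2 fold change of -4.61 if CE replicate 8 is left out. Control replicate 4 entered the CE range, whose highest value was 14.7 CPM. Txnip, a thioredoxin-binding protein induced by glucose, had 109, 112, 351, 32.6 and 47.3 CPM in the Control mice and 31.2, 21.2, 16.6, 38.9 and 21.6 CPM in the CE mice (log2 fold change -2.33, standard error 0.44, edgeR adjusted p = 0.0867). Gpcpd1, a phosphodiesterase of glycerophosphocholine, had 228, 250.4, 669, 165 and 186 CPM in the Control mice and 88.6, 49.6, 146, 111 and 81.6 CPM in the CE mice (log2 fold change -1.65, standard error 0.40, edgeR adjusted p = 0.166), and both had their highest value in Control replicate 3, without which the log2 fold change of Txnip was -1.54. Il1b, an inflammatory cytokine, had 4.65, 6.66, 10.8, 0.392 and 0.672 CPM in the Control mice and 0.555, 0.634, 0.509, 0.702 and 0.858 CPM in the CE mice (log2 fold change -2.82, standard error 0.65, edgeR adjusted p = 0.157), with Control replicates 1 to 3 above every other wild-type mouse. Kif12, a kinesin, was near 0 in all Control mice and reached 74.9, 10.5 and 54.1 CPM in CE replicates 7, 8 and 9, with 0.217 and 0.532 CPM in the other CE mice and at most 1.99 CPM in the 10 mice without Sirt2.

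All 19 immediate early genes were lower in CE (median log2 fold change -0.91, 2 at an unadjusted p under 0.05, as were 5.22% of all genes tested), and the median was -0.01 without Control replicate 3, so that this mouse decided it. Jun had 19.3, 23, 104, 15.5 and 9.07 CPM in the Control mice and 13.8, 15.9, 32.8, 12.5 and 17.5 CPM in the CE mice (log2 fold change -0.88, and 0.15 without Control replicate 3). Of 20 cell cycle genes, 16 were higher (median 0.51) and 5 were higher at an unadjusted p under 0.05 (5.5% of all genes tested). These numbered 1 without Control replicates 1 or 2 or CE replicate 6, 2 without Control replicate 4 or CE replicate 9, 3 without Control replicate 5, 8 without CE replicate 7 and 0 without both Control replicate 3 and CE replicate 9. Mki67, a marker of dividing cells, had 1.15, 1.26, 2.71, 1.96 and 3.18 CPM in the Control mice and 23, 1.21, 0.170, 8.18 and 2.57 CPM in the CE mice (log2 fold change 1.78, and 0.57 without CE replicate 6), and without single libraries the median of the list ranged from -0.08, without CE replicate 6, to 0.64, without Control replicate 4. Among 20 genes of sirtuins and NAD supply (9 higher, median -0.04), Nmrk1, a nicotinamide riboside kinase, was lower without overlap, at 34.7 ± 4.85 CPM in Control and 17 ± 6.82 CPM in CE (SD, n = 5 each, log2 fold change -1.03, standard error 0.39, edgeR adjusted p = 0.323), and Sirt2 was at 42.3 ± 1.30 CPM in Control and 46.6 ± 6.08 CPM in CE (SD, n = 5 each, log2 fold change 0.14, standard error 0.15, edgeR adjusted p = 0.805). In the thyroid hormone axis (6 of 9 higher, median 0.08), Dio1, the deiodinase that makes the active hormone in liver, was higher without overlap. Dio1 was at 102 ± 54.3 CPM in Control and 181 ± 38 CPM in CE (SD, n = 5 each, log2 fold change 0.83, standard error 0.42, edgeR adjusted p = 0.513). Its log2 fold change was 0.53 without Control replicate 3. The transporter gene Slc16a10 was at 101 ± 22 CPM in Control and 174 ± 33.8 CPM in CE (SD, n = 5 each, log2 fold change 0.79, standard error 0.20, edgeR adjusted p = 0.183). Over the removal of each library, the median of the thyroid hormone axis ranged from -0.01 to 0.11. That of sirtuins and NAD supply ranged from -0.10 to 0.02.

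Bile acid synthesis and transport had 11 of 20 members higher (median 0.10), while 4 were lower and 1 higher at an unadjusted p under 0.05 (5.22% and 5.5% of all genes tested). The 4 became 2 without Control replicate 3 and 1 without both that mouse and CE replicate 9. Among the lower were Abcg5 (-0.83) and Abcg8 (-0.84), which together form the sterol exporter, and Slc10a1 (-0.33), the main bile acid importer, with edgeR adjusted p of 0.295, 0.357 and 0.322. With Control replicate 3 left out, the log2 fold changes were -0.42 for Abcg5 and -0.53 for Abcg8. Median log2 fold changes were -0.12 for xenobiotic metabolism (10 of 29 higher), 0.04 for Nrf2 and antioxidant genes (12 of 19), 0.07 for the urea cycle and amino acid breakdown (13 of 22) and 0.07 for secreted hepatokines (12 of 16). They were 0.11 for interferon-stimulated genes (10 of 18), -0.04 for the glucocorticoid response (6 of 13), -0.007 for lipid droplet and lipoprotein genes (10 of 21) and -0.23 for the growth hormone and IGF axis (2 of 11). Male-type liver genes had a median of 0.22 (7 of 11 higher) and female-type genes a median of -1.94 (1 of 6). Single mice decided several of these values. Without Control replicate 3 the median was -0.41 for female-type genes, -0.06 for male-type genes and 0.73 for the glucocorticoid response, and without both it and CE replicate 9 these were -0.14, -0.14 and 0.47. The median of the growth hormone and IGF axis became -0.49 with CE replicate 8 left out and -0.39 with Control replicate 4 left out, and that of interferon-stimulated genes ranged from -0.05, without CE replicate 10, to 0.27, without CE replicate 8. Of the lists near 0 in this paragraph, hepatokines ranged from -0.01 to 0.20, lipid droplet and lipoprotein genes from -0.21 to 0.01 and xenobiotic metabolism from -0.21 to -0.03 over the removal of each library. Bile acid genes ranged from 0.01 to 0.13, the urea cycle and amino acid breakdown from 0.04 to 0.16 and Nrf2 and antioxidant genes from 0.01 to 0.10. Marker lists with few members tested gave medians of -0.72 for neutrophil (2 tested), 0.08 for cholangiocyte (5), -0.26 for erythroid (5), 0.64 for pancreatic acinar (2), 0.06 for skeletal muscle (1), -0.17 for adipocyte (1) and -0.16 for sex-linked genes (4).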
